A study of Homo sapiens with 2 samples.

Results

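The genes described here encode splicing factors. They are the protein-coding genes of the RefSeq table of GRCh38.p14 (the hg38 build) whose symbols start with SRSF, HNRNP, SF3A, SF3B, SNRP, PRPF or U2AF. On chromosomes 1 to 22, X and Y there were 74 such genes among 20037 protein-coding genes. H3K27ac, the acetylated form of lysine 27 on histone H3 that is found at promoters and enhancers in use, was read at them from 2 libraries. The cells were F36P, a human cell line established from an erythroid leukaemia, and each group held 1 library. The ERG library came from cells carrying the retroviral plasmid MSCV-PIG-AM-ERG (genotype label: ERG overexpression), and the Vector library from cells carrying the empty plasmid MSCV-PIG (genotype label: WT). ERG is an ETS-family transcription factor, and what AM stands for was not established here. Both cultures were kept in puromycin (1 µg/ml, 4 days), so the vector backbone and the drug were common to both groups. Of 13 erythroid marker genes, 9 had a peak at a gene end in both libraries, and ANK1 and HBG1 were among those with none in either. Of 12 genes that mark other cell types, 0 had one.

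Splicing removes introns from pre-messenger RNA. The U1 particle marks the start of an intron, the U2AF proteins mark its end, and the U2 particle with its SF3A and SF3B subunits pairs with the branch point. The U4/U6.U5 particle, rich in PRPF proteins, then joins to form the active spliceosome. SR proteins mostly promote, and hnRNP proteins often repress, the use of nearby exons. Several of these genes, SF3B1, SRSF2 and U2AF1 among them, are recurrently mutated in myeloid malignancies.

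A gene counted as having an end peak when a deposited peak came within 1 kb of either end of its record. The number of sequenced fragments at a peak's summit was recovered from the deposited fold and p-value. The lowest background, which is that of the whole genome, was 2.31 fragments (ERG library) and 1.60 fragments (Vector library), and their ratio of 1.44 served as the relative depth. With 1 library per group no difference has a replicate check, and the groups were not tested against each other. Each comparison below is between these libraries, and the intervals of its fragment ratios cover counting error only.

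Most splicing factor genes carried acetylation at an end in both libraries. An end peak was present in both libraries at 50 of the 74 genes, against 30.2% of all protein-coding genes. A further 15 had one in the ERG library alone, against 15.6% of all genes. The count for the Vector library alone was 0, against 0.354% of all genes, and 9 genes had no end peak, against 53.8%. In all, 65 had an ERG-library end peak, against 45.8%, and 50 a Vector-library end peak, against 30.5%. Of the 24 genes without a Vector-library end peak, 15 had one in the ERG library (62.5%), against 22.5% of all genes without a Vector-library end peak. At all 50 genes with a peak in both, at least 1 ERG-library end peak overlapped a Vector-library peak by 1 bp or more, as it did at 99.5% of all such genes. At SF3B2, SNRPA and SRSF2 the strongest peak of each library lay at a different site, so their ratios below divide separate sites. Peaks that overlap can also have summits apart, and their ratios then divide different positions. At HNRNPF the summits lay at 1416 bp (ERG library) and -199 bp (Vector library) from the start, downstream positive.

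Other genes with widely used promoters lay in a similar range. Of 125 other splicing genes, listed from textbook knowledge, 82 had both peaks, 26 an ERG-library peak only, 0 a Vector-library peak only and 17 no end peak. Both peaks were present at 64 of 79 cytosolic ribosomal protein genes, 28 of 39 proteasome subunit genes and 41 of 77 mitochondrial ribosomal protein genes. The ERG library alone had a peak at 13, 6 and 30 of these, in the same order. Of the genes without a Vector-library end peak, that was 86.67%, 54.55% and 83.33%, and 60.47% for the other splicing genes. The 62.5% of splicing factor genes lay within this range. The share of splicing factor genes with both peaks (67.6%) lay between those of the mitochondrial (53.2%) and the cytosolic ribosomal protein genes (81.0%).

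**Figure D1:**
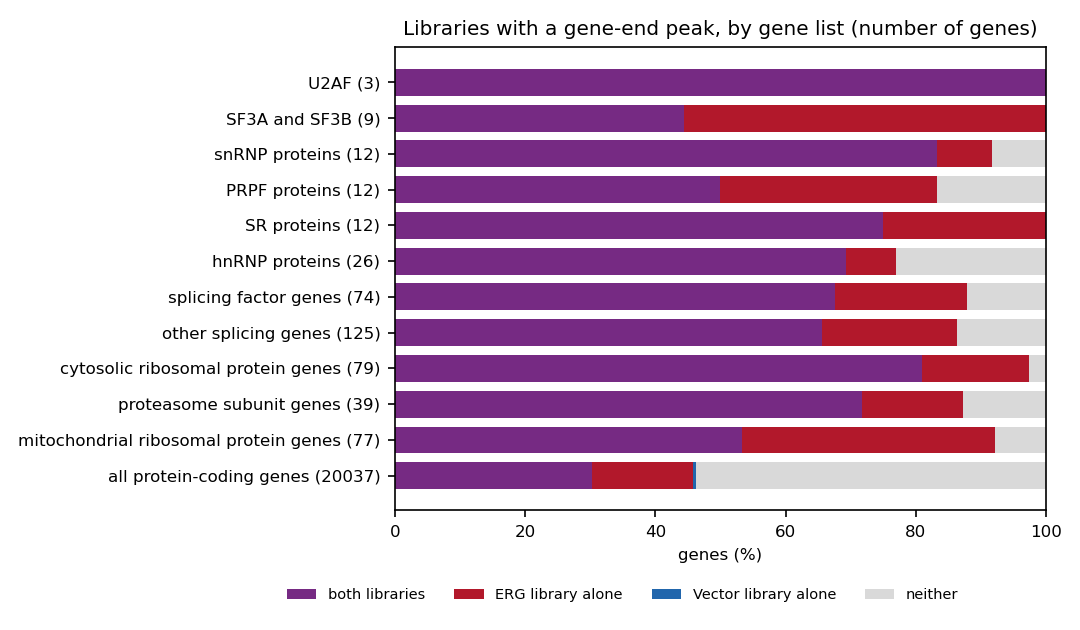
Horizontal bars give the percentage of genes by where an end peak was called (both libraries, 1 of them or neither), by role for the splicing factor genes and for comparison lists, with the number of genes in parentheses. All 3 U2AF genes had peaks in both libraries, whereas 5 of 9 SF3A and SF3B genes had them in the ERG library alone.

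U2AF2 and U2AF1L4 had the most fragments of the set in both libraries, while U2AF1 ranked lower. U2AF2, whose product binds the pyrimidine-rich tract before the end of an intron, lies on chromosome 19 from 55655035 to 55674716. At its start were 277 ERG-library and 128 Vector-library fragments, over local backgrounds of 37.6 and 18.1. The deposited fold was 7.2 and 6.76 there, below that of SRSF6 at 10.8 and 9.50. A second pair of peaks lay at its far end, where the gene EPN1 begins or ends within 1 kb, with 92 and 49 fragments. U2AF1L4, a U2AF1-related gene on chromosome 19 from 35742464 to 35745418, followed with 272 and 110 fragments. Its peaks were narrow, 412 bp (ERG library) and 344 bp (Vector library). They lay at a start that is head to head with that of PSENEN, a subunit gene of gamma-secretase, so the signal cannot be assigned to either gene. U2AF1, whose product contacts the last bases of an intron, had 138 and 63 fragments on chromosome 21. The hg38 build is known to hold a near-identical copy of U2AF1, so its fragment numbers are uncertain. The ratios of fragments (ERG over Vector) were close together, 2.16 at U2AF2 (95% counting interval 1.75 to 2.69), 2.19 at U2AF1 (1.61 to 3.0) and 2.47 at U2AF1L4 (1.97 to 3.11).

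The SF3A and SF3B genes, which encode the branch-point subunits of the U2 particle, had the lowest median of the groups in the ERG library, 44 fragments, and held 5 of the 15 genes with an ERG-library peak alone. All 3 SF3A genes were of that kind, with 44 fragments at SF3A1, 47 at SF3A2 and 44 at SF3A3. SF3B3 (39 fragments) and SF3B4 (38 fragments) were likewise found in the ERG library alone. The SF3A1 peak ran from 30356342 to 30357037 on chromosome 22, the SF3A2 peak from 2236523 to 2237324 on chromosome 19 and the SF3A3 peak from 37989412 to 37990579 on chromosome 1. SF3A1 and SF3A2 start head to head with CCDC157 and PLEKHJ1, so their peaks may belong to either gene. COG4 has an end within 1 kb of an end of SF3B3, and MTMR11 of SF3B4, so the same may hold there.

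Of the SF3B genes with peaks in both libraries, SF3B2 and SF3B5 were below the Vector-library median of 29 fragments over all genes with both peaks. SF3B1, the subunit that clamps the branch region, stood above the rest with 114 ERG-library and 43 Vector-library fragments, a ratio of 2.65 (1.85 to 3.86). SF3B6, whose product lies next to the branch adenosine, had 54 and 29 fragments, and its strongest peaks lay upstream of the start, on the side of FAM228B. SF3B5, a gene short enough for its peak to reach both ends, had 37 and 21 fragments and a ratio of 1.76 (1.00 to 3.17). SF3B2 had 41 fragments downstream of its start in the ERG library, where the Vector library had no peak. The libraries shared an upstream SF3B2 peak with 26 and 23 fragments. With a window of 0.5 kb SF3B6 counted as ERG library alone.

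Promoters of these and other members often held the ETS letters CCGGAAGT. In the 300 bases from 250 before to 50 after the start, taken from RefSeq for the 65 members with an entry, 14 promoters held CCGGAAGT on either strand (21.5%), against 6.15% of all 15842 promoters. Among all genes with an end peak in both libraries the share was 11.4%, and among all genes with an ERG-library peak alone 10.4%. Of members with both peaks 10 of 46 held it, of members with an ERG-library peak alone 4 of 12, and of members without an end peak 0 of 7. The 14 included SF3A1, SF3A2, SF3A3, SF3B2, SF3B4 and SF3B6, and beyond these U2AF2, SNRPA1, SNRPB, SNRPE, SRSF4, SRSF5, HNRNPD and PRPF6. None of the 14 matches overlapped a match to another of the 8 motifs searched. A match is a description of letters and was not tested as a binding site.

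The 100 bases before the start are shown for the 8 members with a match there, since these are the stretches that the matches lie in. HNRNPCL1, a member with no end peak, is given for contrast. Sequences are 5′ to 3′ on the gene's strand (GRCh38.p14), and capitals mark CCGGAAGT or its reverse complement. Their positions are chr22:30356895-30356994 (minus strand) for SF3A1, chr19:2236724-2236823 (plus) for SF3A2, chr1:37990023-37990122 (minus) for SF3A3, chr11:66052264-66052363 (plus) for SF3B2, chr1:149927804-149927903 (minus) for SF3B4, chr20:2470790-2470889 (minus) for SNRPB, chr14:69767042-69767141 (plus) for SRSF5, chr19:55654935-55655034 (plus) for U2AF2 and chr1:12848721-12848820 (minus) for HNRNPCL1.
SF3A1: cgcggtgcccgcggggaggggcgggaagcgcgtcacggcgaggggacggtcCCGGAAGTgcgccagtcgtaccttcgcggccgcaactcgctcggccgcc
SF3A2: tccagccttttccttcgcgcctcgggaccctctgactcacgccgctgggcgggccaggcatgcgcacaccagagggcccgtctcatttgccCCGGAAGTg
SF3A3: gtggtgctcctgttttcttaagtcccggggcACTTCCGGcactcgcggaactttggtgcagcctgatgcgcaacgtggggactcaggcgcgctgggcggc
SF3B2: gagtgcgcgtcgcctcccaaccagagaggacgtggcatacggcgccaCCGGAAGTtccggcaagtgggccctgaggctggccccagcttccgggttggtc
SF3B4: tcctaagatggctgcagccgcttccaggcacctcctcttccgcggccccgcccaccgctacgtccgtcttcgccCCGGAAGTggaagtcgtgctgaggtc
SNRPB: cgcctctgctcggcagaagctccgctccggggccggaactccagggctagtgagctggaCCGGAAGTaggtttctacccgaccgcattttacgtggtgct
SRSF5: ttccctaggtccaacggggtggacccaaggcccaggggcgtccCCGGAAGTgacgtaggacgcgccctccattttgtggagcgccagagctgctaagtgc
U2AF2: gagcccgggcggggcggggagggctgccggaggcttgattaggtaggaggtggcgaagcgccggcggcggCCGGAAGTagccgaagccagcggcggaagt
HNRNPCL1: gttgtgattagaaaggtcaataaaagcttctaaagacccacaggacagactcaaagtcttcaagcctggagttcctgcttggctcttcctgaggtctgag

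These stretches place the match between 69 and 9 bases before the start, on the strand of the gene in all but SF3A3. For the other motifs the shares were as follows. CCAAT was present in 44.6% of member promoters and 36.4% of all, AAGATGGCG (YY1) in 4.62% and 2.69%, GGGCGG (GC box) in 58.5% and 58.3%, CACGTG (E-box) in 12.3% and 8.82%, and TATAAA in 7.69% and 9.75%. The NRF1 motif was in 0 of 65 member promoters and 1.77% of all. The letters AGATAA, bound by GATA factors, were in 0 of 65 and 7.66% of all. Each motif was searched on both strands. Among genes with an end peak in both libraries, the direction of some differences changed. There AAGATGGCG was in 4.35% of members and 5.48% of all, GGGCGG in 58.7% and 72.1%, and TATAAA in 8.7% and 5.16%. CACGTG (15.2% and 10.8%) and CCAAT (37.7% of all) remained more frequent in members. AGATAA was in 4.28% and the NRF1 motif in 3.04% of all such genes, each in 0 of 46 members. The median number of CpG dinucleotides was 28 in member promoters and 22 in all. It was 29 in members with both peaks, 23.5 in members with an ERG-library peak alone and 7 in members without an end peak, against 28, 25 and 12 in all genes of the same kinds.

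The genes of the small nuclear particle proteins, named SNRP, had the highest ratios as a group. Of 12, 10 had an end peak in both libraries, SNRPC in the ERG library alone and SNRPN in neither. Their median ratio was 2.54, against 2.28 over all 50 splicing factor genes with both peaks and 2.16 over the 6049 protein-coding genes with both. The largest ratios were those of the Sm ring proteins SNRPE (50 and 15 fragments, ratio 3.33, interval 1.84 to 6.39), SNRPG (88 and 29, ratio 3.03, 1.97 to 4.79) and SNRPB (102 and 34, ratio 3.0, 2.02 to 4.56). SNRPE, with 15 fragments, was the lowest of all members in the Vector library, so its interval was wide. SNRPD3, also of the ring, had 110 and 61 fragments and a ratio of 1.80 (1.31 to 2.51). The intervals of these 4 genes overlapped.

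Among the particle-specific SNRP genes, SNRPA of the U1 particle had its strongest peaks in different places. The ERG library had 108 fragments just downstream of the start, and the Vector library 45 fragments upstream, on the side of ACTMAP. At the upstream site, where the libraries overlapped, the numbers were 89 and 45. With a window of 0.5 kb SNRPA, like HNRNPUL1 among the hnRNP genes, counted as ERG library alone. SNRPC, which encodes the U1 C protein, on chromosome 6, had a peak of 42 fragments from 34756706 to 34758000 in the ERG library alone. The U2 genes SNRPA1 (64 and 33 fragments) and SNRPB2 (102 and 38 fragments) had peaks in both. Of the SNRPB2 peaks, the deposited fold was 10.6 (ERG library) and 7.69 (Vector library).

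PRPF genes, which serve the U4/U6.U5 particle and the complexes that activate and remodel the spliceosome, were split. Of 12, 6 had a peak in both libraries, PRPF3, PRPF4, PRPF18 and PRPF39 had one in the ERG library alone, and PRPF31 and PRPF40B had none. PRPF4 held the strongest peak of all members found in the ERG library alone, 70 fragments over 1551 bp on chromosome 9 from 113274857 to 113276407. It starts head to head with CDC26, a subunit gene of the anaphase-promoting complex. PRPF3, whose product works with that of PRPF4, had 54 fragments, PRPF39 had 32 and PRPF18, a factor of the second splicing step, had 15.

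PRPF8, the scaffold at the centre of the spliceosome, was weak at its start. It had 25 ERG-library and 12 Vector-library fragments there. Its strongest peaks were at the far end, near RILP, with 39 and 19 fragments. The Vector library had a further peak there, of 17 fragments, that no ERG-library peak overlapped. PRPF19, a ubiquitin ligase of the spliceosome, had 68 and 29 fragments at its start. It also had ERG-library peaks of 37 and 51 fragments at its far end, where the Vector library had no peak. Ratios of the 6 PRPF genes ran from 2.05 to 2.67, a narrower range than in any other group except U2AF.

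Every SR protein gene had an end peak in at least the ERG library. Of 12, 9 had a peak in both libraries and 3, SRSF8, SRSF11 and SRSF12, in the ERG library alone. SRSF4 led with 220 ERG-library and 93 Vector-library fragments, on chromosome 1 at 29180621 to 29181994 and 29180854 to 29181935. SRSF6 followed with 172 and 75, and SRSF10 with 156 and 78, the latter gene giving the lowest ratio of the group at 2.0 (1.51 to 2.66). SRSF2 had a peak on either side of its higher-coordinate end in both libraries, with 105 and 96 ERG-library fragments and 50 and 51 Vector-library fragments. METTL23 and MFSD11 have an end within 1 kb of an end of SRSF2.

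SRSF7 and SRSF3, small SR proteins that also act in mRNA export, had the largest ratios of all members. SRSF7 had 90 ERG-library and 23 Vector-library fragments, a ratio of 3.91 (2.45 to 6.48). SRSF3 had 81 and 24, a ratio of 3.38 (2.12 to 5.57). The SRSF7 peak was 947 bp wide (ERG library) and 367 bp (Vector library). Among the 50 intervals, that of SRSF7 was the 1 that lay wholly above 2.16, the median over all genes, against 5.01% of all genes. The intervals were not adjusted for their number.

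Of the 3 SR genes without a Vector-library end peak, SRSF11 was near the ERG-library median of all genes with an end peak (50 fragments) and the others were lower. SRSF11 had 51 fragments at a start that is head to head with LRRC40. The Vector library did have 1 peak inside the SRSF11 record, beyond 1 kb from its ends. SRSF8, a retrocopy related to SRSF2, had 26 fragments and SRSF12 had 14, the lowest number of all members with a peak.

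The hnRNP genes held both strong promoters and most of the genes without peaks. Of 26, 18 had a peak in both libraries, HNRNPH2 and HNRNPA1L2 in the ERG library alone, and 6 in neither. HNRNPA3 had the highest numbers, 191 ERG-library and 85 Vector-library fragments, followed in the ERG library by HNRNPD (159 and 70) and HNRNPU (140 and 71), a nuclear matrix protein. HNRNPA1 and HNRNPA2B1, encoding abundant nuclear RNA-binding proteins, had 107 against 39 and 81 against 40 fragments. HNRNPK, a poly(C)-binding protein, had 92 and 39. HNRNPH2, on chromosome X, had ERG-library peaks on both sides of its start, with 24 and 49 fragments, and GLA starts head to head with it. HNRNPA1L2, a retrocopy of HNRNPA1, had 36 fragments upstream of its start.

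The 4 smallest ratios were all at hnRNP genes. HNRNPL, which binds CA-rich RNA, had 93 ERG-library and 74 Vector-library fragments, a ratio of 1.26 (0.916 to 1.73). HNRNPR had 98 and 68, a ratio of 1.44 (1.05 to 1.99), and HNRNPAB had 48 and 33, a ratio of 1.45 (0.915 to 2.34). HNRNPM had 63 and 41, a ratio of 1.54 (1.02 to 2.34). HNRNPL and HNRNPR were the 2 members whose interval lay wholly below 2.16, against 4.13% of all genes, and the interval of each held the depth ratio of 1.44. The local background at HNRNPL was high in both libraries, 38.1 and 22.97 fragments, and the deposited fold was 2.40 and 3.13. HNRNPUL1, with a fold of 2.31 and 2.88, was the single member that counted as Vector library alone when the ERG list was cut to as many peaks as the Vector list.

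**Figure D2:**
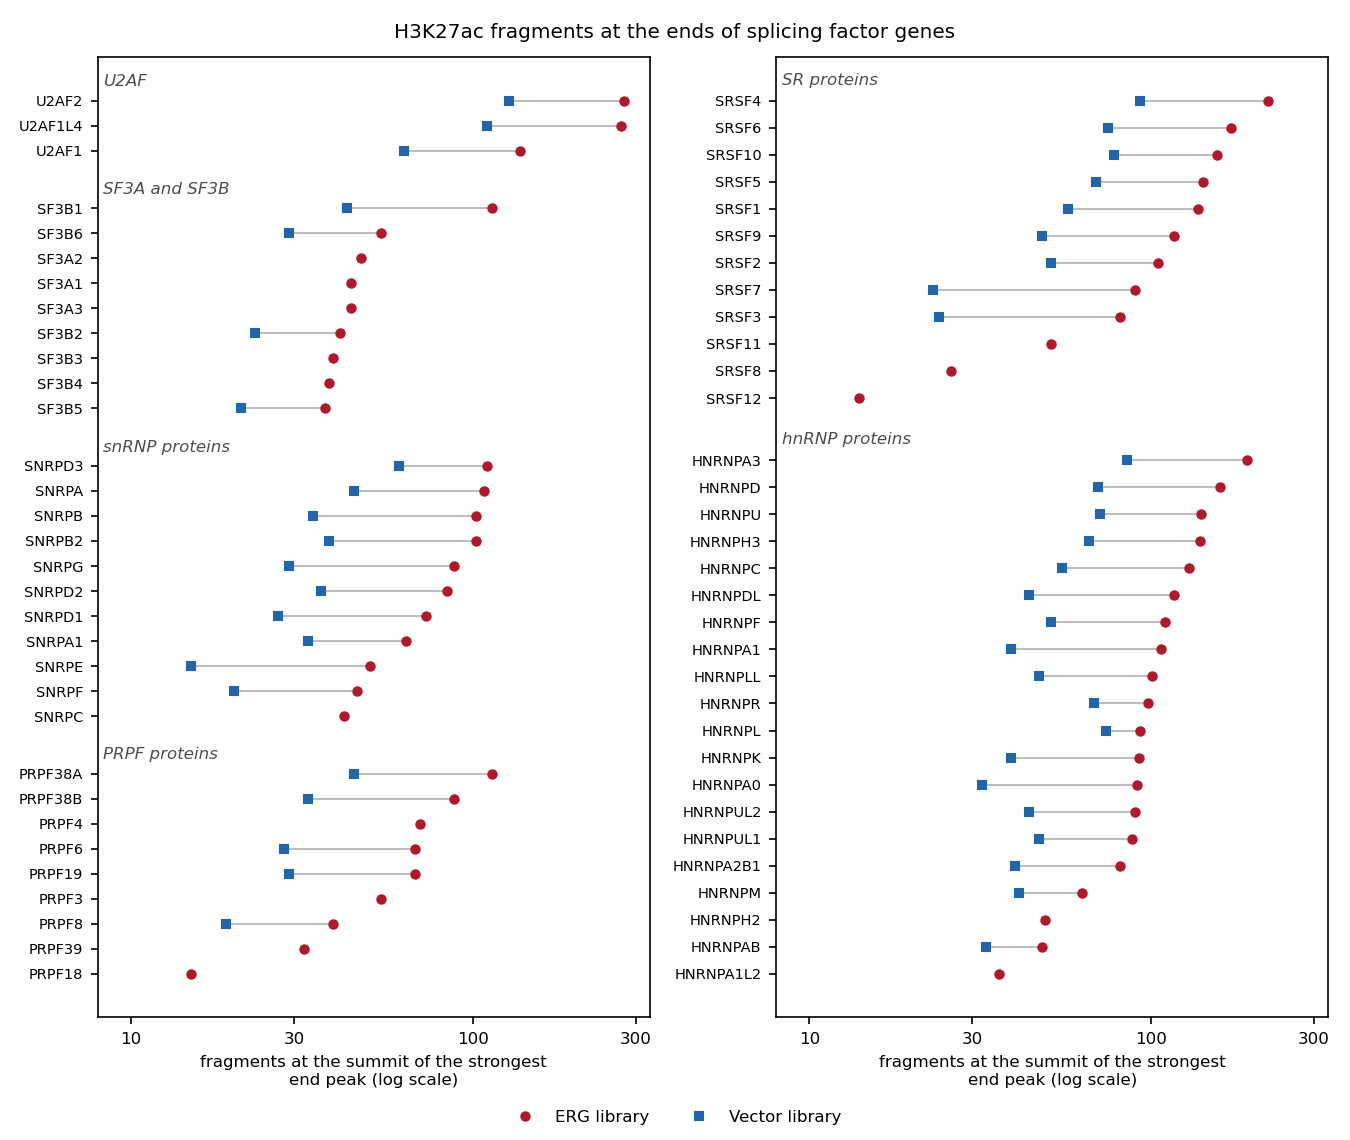
Each row is a splicing factor gene with an end peak, and points give the fragments at the summit of its strongest end peak on a log axis, circles for the ERG library and squares for the Vector library. All 49 drawn genes with both points had more fragments in the ERG library, and the 15 genes with a circle only lay between 14 and 70 fragments.

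Over the 50 genes with both peaks, ERG-library fragments ranged from 37 to 277 with a median of 101.5, and Vector-library fragments from 15 to 128 with a median of 44. These medians were above those of all 6049 genes with both peaks, 64 and 29 fragments. Of the 65 members with an ERG-library peak, 18 were in the top 10% of all genes with such a peak, which began at 111 fragments. Of the 50 with a Vector-library peak, 17 were in the top 10%, which began at 55.

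Every one of the 50 genes had more fragments in the ERG library, against 98.9% of all genes with both peaks. A ratio above the depth ratio of 1.44 was found at 48, against 92.1%. The exceptions were HNRNPL and HNRNPR. The counting interval lay wholly above 1.44 for 36 genes, against 44.5% of all genes, held it for 14 and lay below it for 0, against 0.281%. Such an interval narrows as fragments increase, and the members had more of them. After division by 1.44, 28 of the 50 ratios (56.0%) were at least 1.5, against 49.7% of all genes with both peaks, and 0 were at or below the inverse of 1.5, against 0.81%. The members' ratios were thus near those of all genes. Divided by the median over all genes in place of the depth ratio, 3 members were at least 1.5-fold above, against 6.43% of all genes, and 1 at least 1.5-fold below, against 7.9%.

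Local background differed along with the summit. At the strongest peaks the background was higher in the ERG library by a median ratio of 2.14 in members and 2.02 in all genes. The deposited fold, which divides by that background, was higher in the ERG library at 34 of the 50 genes and higher in the Vector library at 16, with a median ratio of 1.10. Over all genes with both peaks it was higher in the ERG library at 73.7%, with a median ratio of 1.14. The excess over the depth ratio was thus seen in fragments and was much smaller in the fold. The sources do not say whether the background came from an input library or from the same library. In the latter case it could include signal of the peaks, so the fold is not a separate check on the fragments.

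**Figure D3:**
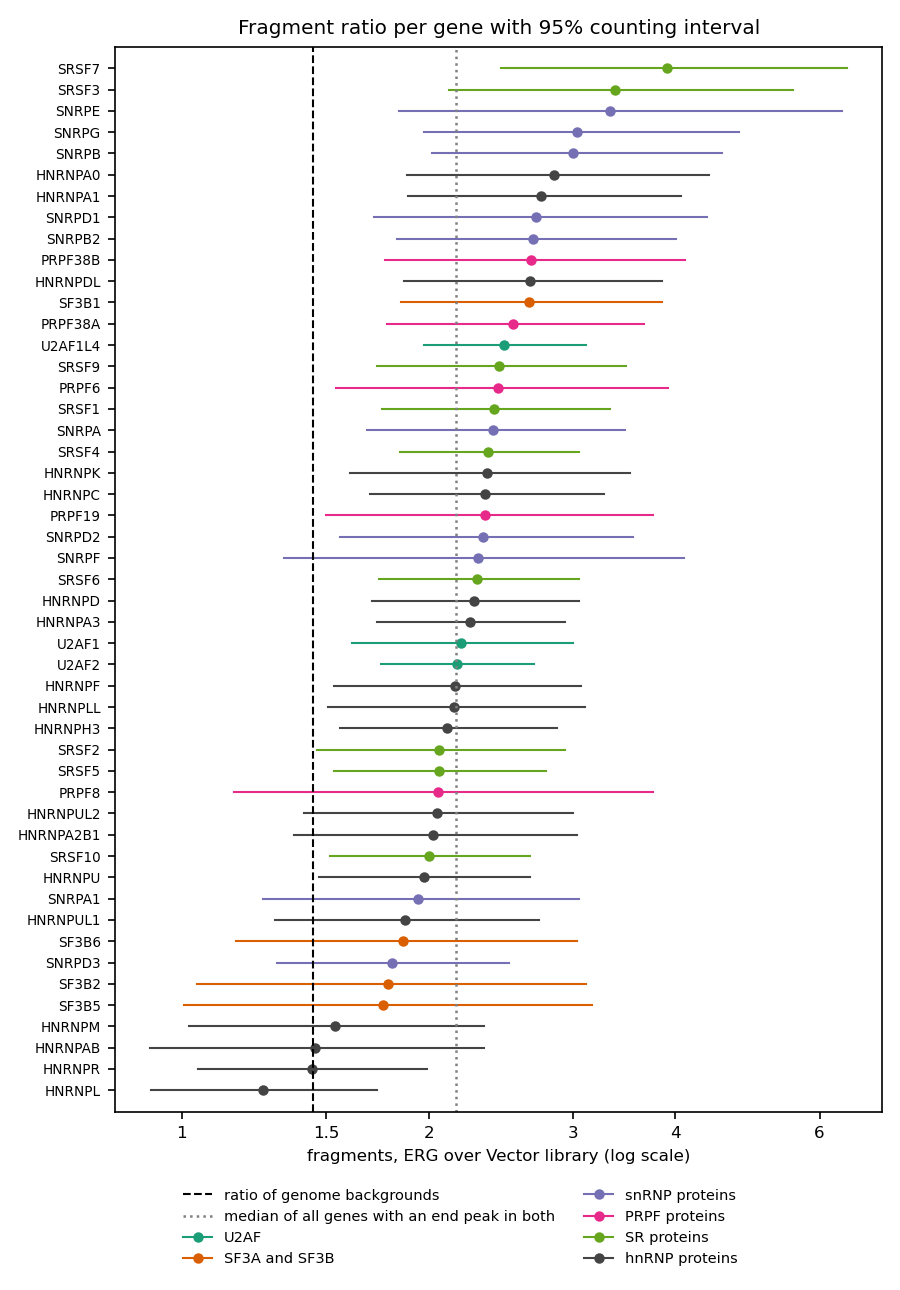
Points give the ratio of summit fragments (ERG over Vector library, log axis) for 49 of the 50 genes with both peaks, coloured by role, with exact conditional 95% intervals for counting error. The dashed line is the ratio of genome backgrounds, 1.44, and the dotted line the median of all genes with both peaks, 2.16. SRSF7 lies at the top and HNRNPL at the bottom, and the ratios of SF3B2, SNRPA and SRSF2 divide peaks at different sites. Summits of overlapping peaks can also lie apart, as at HNRNPF.

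Genes found in the ERG library alone were those with fewer fragments there. Their ERG-library numbers ran from 14 to 70 with a median of 42, and 11 of the 50 genes with both peaks were also at or below 70. Among members with 100 or more ERG-library fragments, 26 of 26 had a Vector-library peak, against 96.8% of all genes at that strength. From 70 to 99 fragments 13 of 14 did, against 92.3%. From 40 to 69 fragments 9 of 16 did (56.2%), against 75.1%, and below 40 fragments 2 of 9 did (22.2%), against 34.0%. A missing Vector-library peak means only that none passed the peak caller's threshold at this depth.

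Peaks were longer in the ERG library. Within the 1 kb windows, the ERG-library peaks covered more bases at all 50 genes with both peaks, against 95.6% of all such genes. The median difference in covered length (ERG minus Vector) was 535 bp over all 74 members, and 535 bp over the 50, against 353 bp over all genes with both peaks. Among the longest covered lengths in the ERG library were 2958 bp at U2AF2 (1823 bp in the Vector library), 2196 bp at SRSF1 (1306 bp), 1833 bp at HNRNPA0 (1657 bp) and 1806 bp at HNRNPUL2 (852 bp). U2AF2 and SRSF1 were covered at both ends. VEZF1 has an end within 1 kb of an end of SRSF1, so part of that coverage may belong to it, as with EPN1 at U2AF2. The shortest were 315 bp at SRSF12, 412 bp at U2AF1L4, 482 bp at PRPF39, 499 bp at PRPF18 and 679 bp at SNRPE. U2AF1L4 thus had the second-highest fragment number and the second-shortest covered length in the ERG library.

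Acetylation lay mainly downstream of the start site. Strand and start were known from RefSeq promoter entries for 65 members, and positions relative to the start were not given for the 9 others, HNRNPA1, PRPF3, SF3B3 and SRSF2 among them. The summit of the strongest peak at either end was downstream of the start in 50 of 58 members (ERG library) and 39 of 46 (Vector library). The median distances were 210.5 and 245 bp. PRPF8 is in both counts through its far-end peaks, with summits 35204 and 35371 bp from the start. The same share over all genes is not given here. At 200 bp downstream, 98.3% of the 58 members with an ERG-library end peak were covered by an ERG-library peak and 67.2% by a Vector-library peak. At 500 bp upstream the shares were 43.1% and 8.62%. For the 7604 other genes with an ERG-library end peak and a listed start, the shares were 79.6% and 48.2% downstream and 34.3% and 13.3% upstream. At that upstream position the counts were 25 members (ERG list) and 5 (Vector list). These genes were chosen for an ERG-library end peak, so their ERG-library shares were high in part by that choice. A Vector-library end peak was present at 46 of the 58 members.

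**Figure D4:**
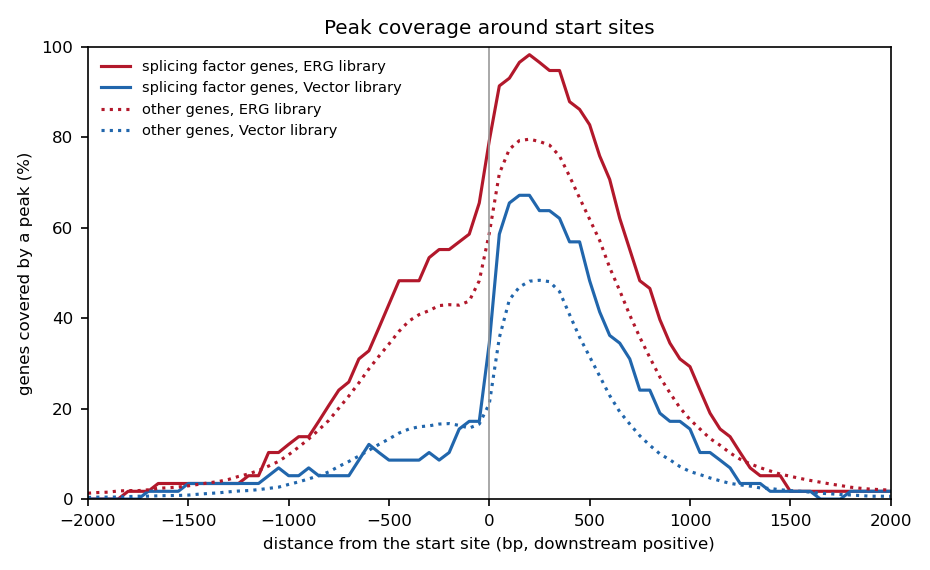
Lines give the percentage of genes covered by a peak at each distance from the start site, downstream positive, for the 58 splicing factor genes with a listed start and an ERG-library end peak (solid) and 7604 other such genes (dotted), in the ERG and the Vector library. Coverage of splicing factor genes was highest about 200 bp downstream, at 98.3% and 67.2%, and the Vector library covered few members upstream. The choice of genes with an ERG-library end peak by itself raises the ERG-library lines.

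Several members had separate ERG-library peaks around a single end. This was so for 12 of the 65 with an ERG-library end peak (18.5%), against 8.61% of all genes with such a peak, and the count was 5 when each list kept its higher-scoring 50%. The 12 were HNRNPA2B1, HNRNPA3, HNRNPH2, HNRNPL, HNRNPR, PRPF19, SF3B2, SF3B3, SF3B6, SNRPA, SNRPD2 and SRSF2. In the Vector library 4 of 50 did so, HNRNPR, PRPF8, SNRPD3 and SRSF2, against 6.37%. SNRPD3 and PRPF8 had more Vector-library than ERG-library peaks at an end. At SNRPD3 the 2 Vector-library peaks, of 46 and 61 fragments, lay under 1 ERG-library peak of 1909 bp.

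Shared promoters were common in the set. Of the 65 members with a listed start, 17 had the start of another protein-coding gene within 1 kb on the opposite strand (26.2%), against 12.7% of all genes. The comparison lists were also above all genes. Their shares were 31.88% for mitochondrial ribosomal protein, 24.51% for other splicing, 20.31% for cytosolic ribosomal protein and 17.65% for proteasome subunit genes. Examples with peaks in both libraries are HNRNPA2B1 with the heterochromatin protein gene CBX3, SRSF9 with the dynein light chain gene DYNLL1, and PRPF38A with the replication origin gene ORC1. The median number of ERG-library fragments was 87 in the 16 such members with an ERG-library peak and 89 in the 42 others. H3K27ac at these starts cannot be assigned to either gene. Counting any end, 35 of the 74 members had an end of another protein-coding gene within 1 kb (47.3%), against 28.5% of all genes. These neighbours include CBX5 at HNRNPA1 and FKBP3 at PRPF39.

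The 9 members without an end peak were of several kinds. HNRNPCL1, HNRNPCL2, HNRNPCL3 and HNRNPCL4 are near-identical HNRNPC-like genes on chromosome 1, so reads from them are uncertain, and the nearest peak of either library was at least 228652 bp away. HNRNPA1L3, a retrocopy of HNRNPA1 on chromosome 16, had its nearest peak 803373 bp away. PRPF40B, on chromosome 12 from 49622646 to 49644665, had its nearest ERG-library peak 18639 bp away and none of the Vector library within 50 kb.

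HNRNPH1 and SNRPN had peaks deeper inside the gene record. At HNRNPH1 both libraries had 2 peaks at internal start sites listed by RefSeq. The peak at 179623983 to 179624710 on chromosome 5 had 78 fragments in the ERG library, and its Vector-library counterpart at 179624031 to 179624641 had 30. The peak beside it had 45 and 33. SNRPN, an Sm protein gene of an imprinted locus on chromosome 15, had an ERG-library peak of 20 fragments at 24954941 to 24956097 over the internal start at 24954987, which is also an end of the record of SNURF. The Vector library had no peak inside SNRPN.

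PRPF31, a U4/U6.U5 particle gene on chromosome 19 from 54115754 to 54131713, starts head to head with TFPT and had no peak inside it in either library. The nearest peaks were 5937 bp away (ERG library) and 4980 bp (Vector library). The build holds alternative copies of part of chromosome 19, and 70 ERG-library and 19 Vector-library peaks were placed on chromosome 19 alternative sequences. Their part in the missing PRPF31 peak was not tested.

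Among the 125 other splicing genes, values resembled those of the members. The median ratio was 2.26 over the 82 with both peaks, and 46 of them (56.1%) were at least 1.5-fold above the depth ratio. Genes with an ERG-library peak alone included GEMIN7 of the SMN complex (98 fragments), SNU13 of the U4 particle (80 fragments), EIF4A3 of the exon junction complex (59 fragments) and the branch-point helicase gene DDX46 (17 fragments). The 17 genes without an end peak included LSM2, DHX16, DDX39B and SMN1. These 8 genes were chosen after their values were seen. SMN1 has a near-identical copy, SMN2, so its reads are uncertain. LSM2, DHX16 and DDX39B lie in the histocompatibility region of chromosome 6, of which the build holds alternative copies. Whether their reads were placed on those copies was not tested.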

How the data were processed

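H3K27ac was measured by chromatin immunoprecipitation and sequencing in 1 ERG and 1 Vector library of F36P cells, fixed with 1% formaldehyde and cut with micrococcal nuclease, 10 µg of chromatin each, per the labels' protocols. The authors used Bowtie2, MACS2 and deepTools with hg38, per the submitters' processing notes. Settings and the use of an input library are not given in the sources used here. Each deposited list holds peaks of a single library with the authors' score, the fold at the summit over local background, the −log10 p-value and the −log10 q-value. The score was used to rank peaks within a list. The lists held 19671 ERG-library and 9161 Vector-library peaks.

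Fragments were recovered by solving the deposited fold (fragments plus 1 over background plus 1) and Poisson −log10 p-value for a whole number. The relative error was under 0.0001 for 99.9% of peaks in each library. The calculation was also run on simulated data made with the same formula, which checks the code alone. Read totals are unknown, and the depth ratio of 1.44 assumes fragments of similar length (narrowest peaks 294 and 288 bp). Overlap required 1 bp. Ratios have exact conditional 95% intervals. Genes and promoters came from RefSeq GRCh38.p14, without exons. Python 3.11.15, pandas 2.3.3 and scipy 1.17.1 were used.

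The members and lists were chosen with earlier results of these data known. All members were counted. The genes named are those with an end peak in 1 library or none, the 5 highest by fragments in each library, the 5 highest and lowest ratios, the 5 longest and shortest covered lengths, and at least 1 of each family. Values of 1 member are not reported singly here or drawn, and it stays in the counts and medians. Other members, and the other splicing genes named, were added after their values were seen. Alternatives were windows of 0.5 and 2.5 kb, the upper 50% by score, an ERG list shortened to the Vector list, a thinned ERG library, start ends only, other overlaps and other ratio scales.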

Additional observations from a re-analysis of the deposited data

How the results depend on the processing

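Of 46 values recomputed under an alternative, 37 stayed within 1.5 times the reported count or inside the 95% binomial interval of the reported median, and 9 did not. That interval describes spread between genes, not between libraries, and served only as a mark for a changed value. When the ERG list kept only as many top-scoring peaks as the Vector list holds, 9 genes counted as ERG alone, 1 as Vector alone (HNRNPUL1) and 15 as having no end peak, and the median covered difference was 408 bp. In the upper 50% by score, 14 genes had no end peak and 5 had separate ERG-library peaks at an end. With a 0.5 kb window the covered difference was 347.5 bp, a shorter window by construction. The deposited fold gave a median ratio of 1.10 in place of 2.28, since it divides by a background that was also higher. Scaled by the all-gene median, 4 genes were past 1.5-fold in place of 28. The number with peaks in both libraries ran from 41 to 50 over all 6 alternatives, and thinning the ERG library to the Vector background left it at 50. Thinning divided each ERG-library summit and background by 1.44 and kept 18748 of 19671 peaks. It called no peaks anew and left the Vector list unchanged, so this count says little about depth. No paired analysis was possible because each group holds 1 library, and depth limits the weaker promoters, where a missing Vector-library peak says only that none was called.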
